A study of Arabidopsis thaliana with 6 samples.

Results

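The regions described here are the OE17-4 peaks of AtDEK3 whose midpoint lay inside a protein-coding gene and 0 to 500 bp from the nearer end of that gene. They numbered 1341 of the 3426 peaks of the OE17-4 list, among 12491 peaks in the lists of all 3 lines, and they lay in 1325 genes. They were chosen by the measured position alone: the midpoint was placed on the RefSeq gene spans of TAIR10.1, and where several genes held a midpoint (35 of these peaks) the gene with the largest distance to its nearer end was taken. The share of the list in this class is therefore a description. Reads and the other lines were not part of the choice. Gene length and neighbours entered it through the gene spans. All bases of genes under 1000 bp count as near an end, against 14.7% in genes of 5000 bp and more. Overlapping neighbours decided which gene was taken.

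Peaks came from chromatin immunoprecipitation followed by sequencing (ChIP-seq), which reads the DNA bound to a protein that an antibody pulls down. All 3 lines, OE3-1, OE9-1 and OE17-4, are Arabidopsis thaliana Col-0 overexpressors of AtDEK3 with a CFP tag, pulled down with an antibody to GFP, and nuclei came from whole seedlings kept on soil for 14 days with 16 h of light and 8 h of dark. The promoter of the transgene is not given in the sources used here, no line without the transgene was analysed here, and a seedling mixes many cell types. Each line is 1 library with 1 peak list, and its 1 input library was not analysed here, so the spread between lines holds both biological and technical differences. The lists of OE17-4, OE3-1 and OE9-1 held 549029, 1235876 and 814853 reads inside peaks, and the full depth of the libraries is unknown. The lists also differ in their filter: the highest Wilcoxon filter p, a quality value of the authors for each peak, was 0.1 in OE3-1 and OE9-1, but in OE17-4 all but 1 of 3426 peaks were at or under 9.99e-05. At that common limit 1231 OE3-1 peaks and 471 OE9-1 peaks remain, and values at this limit are given below where they change a comparison between lines.

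DEK proteins are abundant chromatin proteins that bind DNA and histones, and the animal protein is known to change the topology of DNA. AtDEK3 is 1 of the Arabidopsis members and is encoded by AT4G26630. The 2 ends of a gene are where transcription starts and where the transcript is cut and polyadenylated, and nucleosomes near both ends are arranged differently from those in the gene body. The gene table gives no strand, so start and stop of transcription could not be told apart. Ends are named below by their lower or higher coordinate, and either can be the start.

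Peaks just inside gene ends made up a larger share of the OE17-4 list than of either other list as deposited, but not at a common Wilcoxon limit. They were 39.1% of OE17-4 peaks (exact 95% interval 37.5 to 40.8%), 30.6% of OE3-1 peaks (1634 of 5332, 29.4 to 31.9%) and 18.6% of OE9-1 peaks (693 of 3733, 17.3 to 19.8%). The mean over lines was 29.5% ± 10.3 (SD, n = 3), so the lines spread widely. At the common limit the shares were 39.2% in OE17-4 (37.5 to 40.8%), 39.2% in OE3-1 (36.5 to 42.0%) and 22.7% in OE9-1 (19.0 to 26.8%), so OE17-4 and OE3-1 were level. Of the chromosome bases, 21.1% lie in such positions. Intervals cover counting error only, and with 1 library per line no difference between lines was tested over samples.

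Among midpoints inside genes alone, OE17-4 and OE9-1 were close to each other in the lists as deposited. Near-end positions held 52.7% of the 2547 OE17-4 midpoints in genes and 49.7% of the 1395 OE9-1 midpoints in genes. They hold 38.9% of gene bases, which gives ratios of 1.35 for OE17-4 and 1.28 for OE9-1. In OE3-1 the share was 33.9% of 4813 midpoints in genes, a ratio of 0.872 to the bases. At the common limit the OE17-4 share stayed at 52.7%, while it was 45.6% of 1059 midpoints in OE3-1, now above the share of the bases, and 65.6% of 163 in OE9-1. The lower coordinate was the nearer end for 672 OE17-4 peaks (50.1%, interval 47.4 to 52.8%), so both coordinates were equally common. Without strand this does not show whether starts or stops of transcription were preferred.

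The gene edge itself held few OE17-4 peaks, and most lay 100 to 500 bp inside. Genes of at least 2000 bp have every 100 bp step up to 1000 bp, and each step holds 5.84% of their bases. Of 1756 OE17-4 midpoints in these genes, 47 (2.68%) lay within 100 bp of an end, a ratio of 0.458 to the bases. The next steps held 130 midpoints (7.40%), 208 (11.8%), 166 (9.45%) and 168 (9.57%), with ratios of 1.27, 2.03, 1.62 and 1.64. The step from 200 to 300 bp was thus the fullest. From 500 to 600 bp there were still 131 midpoints, a ratio of 1.28, and from 600 to 700 bp 92, a ratio of 0.897.

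The other lists as deposited had other profiles in the same genes. OE9-1 was highest at the edge, with 110 of 1052 midpoints within 100 bp and 112 from 100 to 200 bp, then 85, 62 and 46. OE3-1 was low at the edge, with 81 of 3950 midpoints within 100 bp and 157 from 100 to 200 bp, and then stayed near the share of the bases, with 262, 287 and 247. In genes of at least 2000 bp near-end positions took 41.1% of OE17-4 midpoints, 26.2% of those of OE3-1 and 39.5% of those of OE9-1, against 29.3% of the bases. At the common limit the OE3-1 profile was closer in form to that of OE17-4. Its 5 steps held 23, 46, 78, 96 and 68 of 828 midpoints, or 2.78%, 5.56%, 9.42%, 11.6% and 8.21%. OE9-1 kept its high edge there, with 16, 18, 13, 10 and 6 of 112 midpoints.

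**Figure D1:**
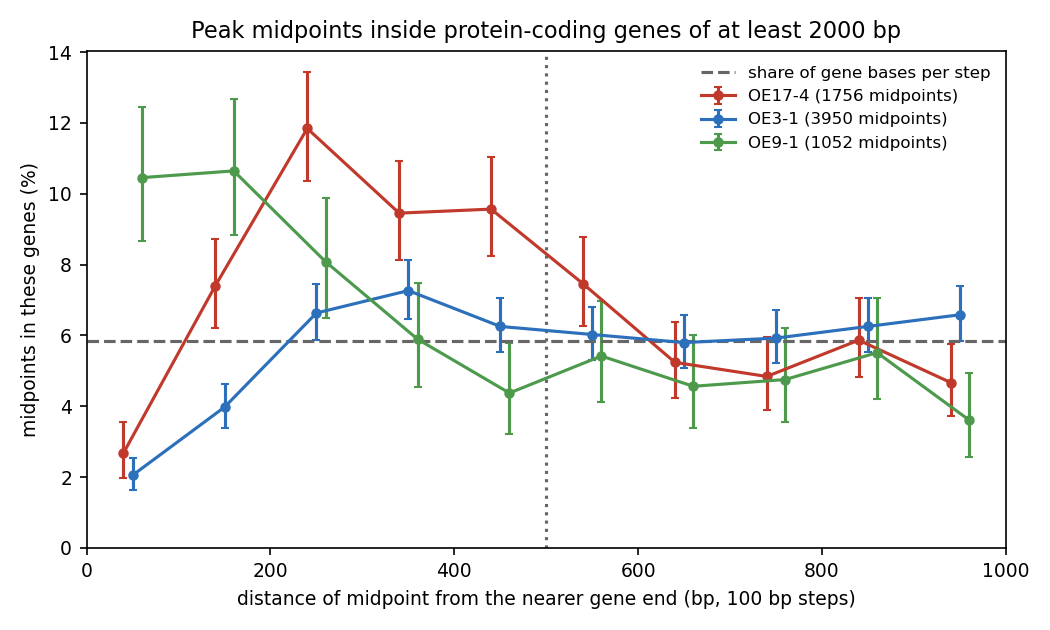
Share of midpoints of the lists as deposited (%) by distance from the nearer gene end (bp, steps of 100 bp) in genes of at least 2000 bp, for the 3 lines, with exact 95% intervals, the share of bases per step (dashed) and the 500 bp limit (dotted). OE17-4 is low in the first step, at 2.68%, and highest from 200 to 300 bp, at 11.8%, while OE9-1 is highest below 200 bp and OE3-1 stays near the dashed line beyond 200 bp.

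The limit of 500 bp cut through a continuous range. There were 121 OE17-4 midpoints from 450 to 500 bp and 104 from 501 to 550 bp. The last ones inside lay at 500 bp in AT5G04160 (194 reads), HSP93-III, a chloroplast chaperone gene (165 reads), and AT1G61710 (129 reads). The first ones outside lay at 501 bp in WIP4, a zinc finger protein gene (146 reads), AT3G23350 (144 reads) and AT1G16290 (120 reads). Reads on the inner and outer side of the limit overlapped.

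Genes with a peak just inside an end were of ordinary length. Their median length was 2087 bp (95% interval 2025 to 2147 bp) against 2078 bp for all 27444 protein-coding genes. Genes with an OE17-4 midpoint deeper inside and none near an end had a median of 3206 bp, although a gene must be longer than 1000 bp to hold one at all. Near-end genes of the other lines were longer, with 2365.5 bp in OE3-1 and 2336.5 bp in OE9-1. Of all protein-coding genes, 4.83% held an OE17-4 peak just inside an end. That share was 3.79% in genes under 1000 bp (166 genes), 5.18% from 1000 to 2000 bp, 4.91% from 2000 to 3000 bp, 4.89% from 3000 to 5000 bp and 5.13% in longer genes. It was nearly level beyond 1000 bp, while the same share in OE3-1 went from 5.55% in genes of 1000 to 2000 bp to 8.85% in the longest genes. Genes beyond about 1000 bp all have the same number of near-end bases, and shorter genes have fewer. Peaks spread evenly over near-end bases would also give a level share there and a lower one in shorter genes. Members of the 5 chromosomes numbered 344, 235, 241, 217 and 304 in order, or 25.7%, 17.5%, 18.0%, 16.2% and 22.7%, where near-end bases divide as 26.3%, 15.6%, 19.8%, 15.2% and 23.1%.

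The space beside the gene differed between its nearer and its farther end. The next protein-coding gene was a median of 849 bp away on the side of the OE17-4 peak (interval 767 to 968 bp) and 662 bp away on the other side (594 to 745 bp), where the median over all gene ends was 650 bp. The nearer side had the wider gap for 719 of the 1332 peaks whose gaps could be compared and were unequal, 54.0% (51.3 to 56.7%). The difference was larger for peaks closer to the end. For midpoints within 100 bp the medians were 1151 bp on the nearer and 456 bp on the farther side, and the nearer side was wider for 66.7% of 99 peaks (56.5 to 75.8%). From 100 to 200 bp it was wider for 61.3% of 240 peaks (54.8 to 67.4%) and from 200 to 300 bp for 57.7% of 355 (52.4 to 62.9%). From 300 to 400 bp it was wider for 48.4% of 337 peaks (42.9 to 53.8%) and from 400 to 500 bp for 45.8% of 301 (40.1 to 51.7%), and both intervals include 50%. Where a neighbour overlaps an end, the rule can give a midpoint close to that end to the neighbour. This by itself makes gaps of 0 rarer on the nearer side close to the end, in all 3 lines. The nearer gap was 0 for 2.02% of OE17-4 peaks within 100 bp and 11.9% from 400 to 500 bp, against 13.2% of all gene ends. How much of the step differences this makes was not tested.

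Lower values from 300 to 400 bp than below 200 bp also appeared in the other lines, around a different level in OE3-1. In OE9-1 the nearer side was wider for 64.1% of peaks within 100 bp and 62.0% from 100 to 200 bp, but 41.6% from 300 to 400 bp, and 52.5% of the last 61 peaks. In OE3-1 the values were 52.4%, 52.8% and 38.0% for the same steps. Over the whole 500 bp the share was 56.2% in OE9-1 (52.4 to 59.9%) and 44.8% in OE3-1 (42.4 to 47.3%), with nearer and farther medians of 981 and 743 bp in OE9-1 and of 331 and 471 bp in OE3-1. The next annotated gene of any type beyond the nearer end of the OE17-4 peaks was protein-coding for 82.1%, non-coding RNA for 11.3% and a pseudogene or transposable element for 6.56%. All gene ends have 83.1%, 10.9% and 6.0%. Of the OE17-4 midpoints, 32 (2.39%) also lay over a non-coding RNA gene and 3 over a pseudogene or transposable element.

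**Figure D2:**
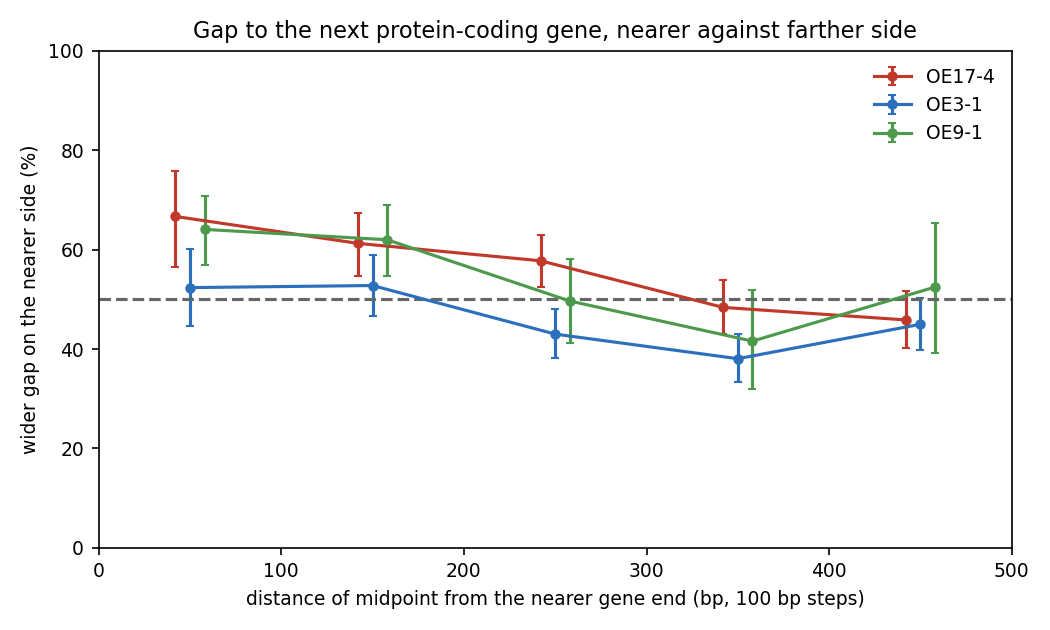
Share of near-end peaks (%) whose nearer side has the wider gap to the next protein-coding gene, by distance of the midpoint from that end (bp, steps of 100 bp), for the 3 lines with exact 95% intervals and a dashed line at 50%. In OE17-4 the share goes from 66.7% within 100 bp to 45.8% from 400 to 500 bp, and OE9-1 and OE3-1 are also lower from 300 to 400 bp than below 200 bp.

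The authors' lists name a gene for each peak. For 1080 of the 1341 OE17-4 peaks (80.5%) this was the gene that held the midpoint. For 193 it was a gene lying beyond the nearer end, for 30 a gene beyond the farther end, for 5 neither, and for 33 the name was not in the gene table. In OE3-1 the host gene was named for 69.2% and in OE9-1 for 72.2% of the near-end peaks.

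A median OE17-4 peak just inside a gene end held 137 reads (quartiles 115 and 168, range 62 to 15690). Peaks deeper in genes held a median of 148 reads and peaks outside protein-coding genes 117, so the near-end peaks lay between them. Reads were slightly more numerous farther from the end, with step medians of 125, 123.5, 132, 141 and 146 from the edge to 500 bp, where the quartiles of the whole set are 115 and 168. The median peak was 132 bp long, against 139 bp in the rest of the list. The authors' false discovery rate (FDR) was 0.97% at the median, against 1.14% in the rest of the list, and under 1% for 675 of these peaks (50.3%) against 46.8% of the rest. The authors' normalized difference between strands, a fraction that is 0 when forward and reverse reads are equal, was 0.07 at the median in both sets.

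**Figure D3:**
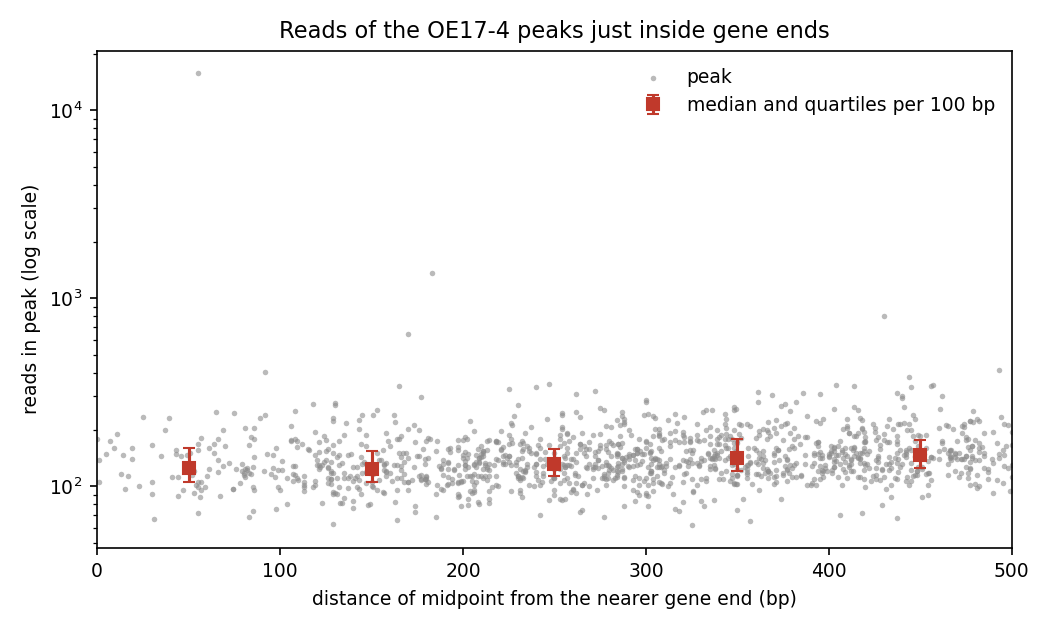
Reads per peak (log scale) against the distance of the midpoint from the nearer gene end (bp) for the 1341 OE17-4 peaks, with the median and quartiles of each 100 bp step. Step medians lie between 123.5 and 146 reads, and 4 peaks stand above 500 reads.

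Reads were spread evenly over the peaks except for a few. The near-end peaks held 214375 of the 549029 reads in the list, 25 of them held more than 300 reads and 4 more than 500. The highest was a 22 bp peak in AT5G10340 (chr5:3253167-3253188), 55 bp inside the end, with 15690 reads, 7720 forward and 7970 reverse, and an FDR of 1.41e-26%. It is shorter than the 36 bp reads, and no peak of the other lines overlapped it. The next were AT2G07772 with 1359 reads (chr2:3301565-3301678), AT2G07633 with 799 (chr2:3330859-3330929) and AT2G07629 with 647 (chr2:3313002-3313085). These 3 lie close together near the centromere of chromosome 2, where a copy of mitochondrial DNA is inserted in the nuclear genome. Reads of such a copy cannot be placed with certainty, so these values are uncertain. Below them came AT5G10880 with 415 reads, HCF136, which encodes a photosystem II assembly factor, with 406, AT1G75600 with 381 and AT1G27160 with 350.

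By the authors' FDR the leading peaks were mostly others. After AT5G10340 came AT5G65900 with an FDR of 4.55e-12% and 339 reads (chr5:26358548-26358665, 445 bp inside) and AT1G75600 with 7.28e-09% (444 bp inside). AT5G24880 followed with 1.71e-08% and 315 reads, and AT1G10610 with 1.38e-05% and 337 reads. The remaining 7 of the 12 lowest, in AT4G33610, AT5G09780, AT1G49640, AT1G08340, GATA14, AT5G01380 and ACC1, had between 186 and 309 reads. GATA14 encodes a GATA-type transcription factor and held 207 reads at 335 bp from its end. ACC1, a gene of 10848 bp that encodes acetyl-CoA carboxylase, held 248 reads at 287 bp. These peaks lay from 55 to 445 bp inside, so no single distance stood out among the strongest.

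Most genes had a single near-end peak, 1309 of 1325, and 16 genes had 2. In 15 of these the peaks lay at both ends. TOPII, which encodes DNA topoisomerase II, is 6757 bp long and held 141 reads 256 bp inside the lower-coordinate end and 138 reads 482 bp inside the other. AT3G17770 had 119 reads at 234 bp and 237 reads at 228 bp, and AT5G60980 had 187 reads at 271 bp and 194 reads at 419 bp. AT1G05894 had 191 and 213 reads, AT2G28790 127 and 157, AT1G51040 105 and 172, and AT5G38700 178 and 91. Over the 15 genes the larger count was 1.24 times the smaller at the median and 1.99 times at most. The remaining genes with peaks at both ends were AT3G61960, AT4G38710, AT5G53140, AT1G22700, AT4G19380, IQD25, RMA2, a ubiquitin ligase gene, and CCT1, a gene of phosphatidylcholine synthesis. The other gene was AT4G26630, which encodes AtDEK3 itself. Its 2 entries, with 251 reads (chr4:13430826-13430943) and 233 reads (chr4:13430852-13430946), overlap at 479 and 494 bp from the lower-coordinate end and are written in different ways in the list, so they may be 1 region. Reads of the transgene and of the gene itself cannot be told apart there.

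**Figure D4:**
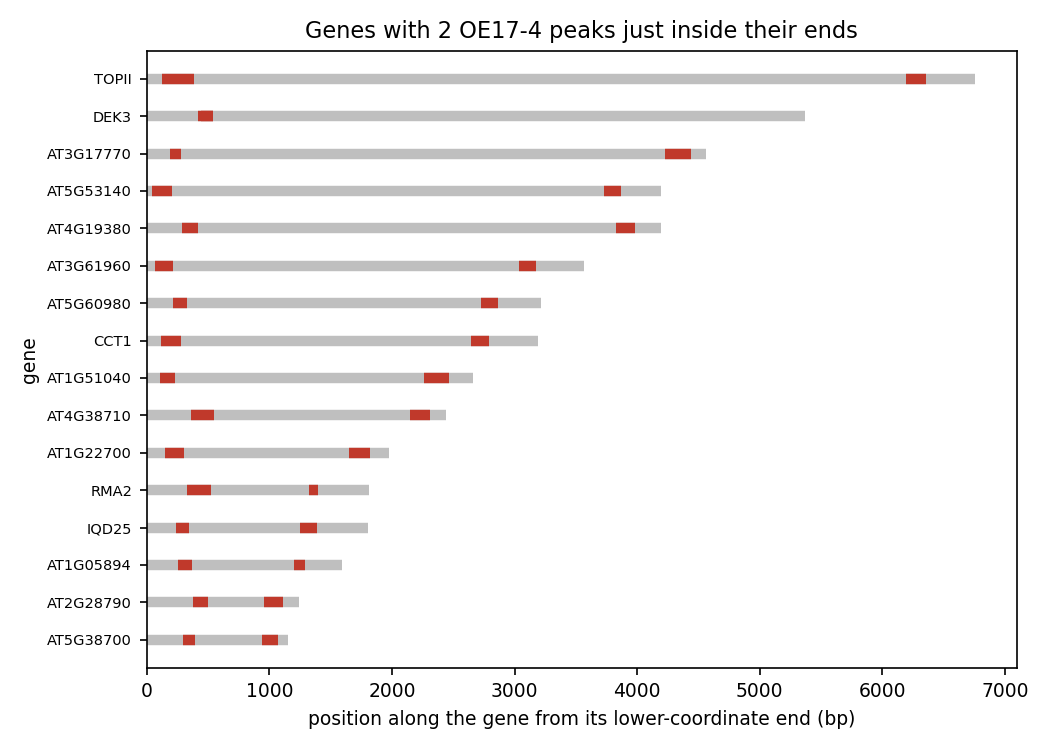
The 16 genes with 2 OE17-4 peaks just inside their ends, drawn to scale in bp from the lower-coordinate end (grey), with the peaks in red. In 15 genes the peaks sit at opposite ends, and in the AtDEK3 gene, shown as DEK3, the pair overlaps at one end.

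A peak at 1 end said little about the opposite end or about the neighbouring gene. Over genes of every length, 2.44% of all gene ends held an OE17-4 midpoint 0 to 500 bp inside, 2.98% one of OE3-1 and 1.26% one of OE9-1. In genes of at least 1000 bp, the opposite end held an OE17-4 peak for 30 of 1174 ends, 2.56% (1.73 to 3.63%), where 2.54% of all such ends did. The facing end of the next gene held one for 24 of 1208 ends, 1.99% (1.28 to 2.94%), against 2.53% of all ends facing a neighbour. In both counts a pair of ends enters from each side, so the 30 ends are the 15 genes with peaks at both ends. The intervals treat these ends as separate and are too narrow. OE17-4 peaks outside genes within 1000 bp of the nearer end occurred for 8 of the peaks, and within 1000 bp of the farther end for 7. No share over all gene ends was computed for these counts, so whether they are few cannot be said.

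Few of these places carried a peak in the other lines. An OE3-1 peak overlapped 34 of the 1341 OE17-4 peaks by at least 1 bp, 2.54% (1.76 to 3.53%), which is 0.638% of the OE3-1 list. Of OE17-4 peaks deeper in genes 2.49% were overlapped, 30 of 1206, and of those outside genes 0.796%, 7 of 879. An OE9-1 peak overlapped 2 of the 1341, 0.149% (0.0181 to 0.538%), which is 0.0536% of the OE9-1 list. Of OE17-4 peaks deeper in genes OE9-1 overlapped 3, 0.249%, and of those outside genes 5, 0.569%. At the common Wilcoxon limit 14 of the 1341 were overlapped by OE3-1 and 1 by OE9-1. A midpoint of OE3-1 lay within 1000 bp of 139 of the OE17-4 peaks and a midpoint of OE9-1 within 1000 bp of 66. No share over the other OE17-4 peaks is given for these distances or for the common limit, so those counts are descriptions only.

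Among the 34, HCF136 had the most reads, with 406 in OE17-4 at 92 bp from its end and 212 in OE3-1 at 23 bp. AT4G17240 followed with 287 and 276 reads, AT1G27752 with 258 and 263, and TWD1, which encodes an immunophilin-like protein of auxin transport, with 203 and 195. AT5G51150 had 175 reads in OE17-4 and 208 in OE3-1, AT5G38640 had 163 and 151, AT5G15570 157 and 236, AT4G15830 153 and 182, WRKY67 148 and 217, and AT1G19485 146 and 354. Read numbers of different lines are not on one scale and are given side by side. The 2 peaks shared with OE9-1 were in TRM33, with 119 reads in OE17-4 at 438 bp and 272 in OE9-1 at 373 bp, and in TRY, which encodes a small MYB protein that represses trichome formation, with 105 reads at 199 bp and 225 reads at 125 bp.

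At the level of whole genes the lines met about as often as in all genes. Of the 1325 genes with an OE17-4 peak just inside an end, 214 also held an OE3-1 midpoint anywhere, 16.2% (14.2 to 18.2%), and 15.3% of all protein-coding genes did. These 214 are 5.10% of the genes with an OE3-1 midpoint. An OE9-1 midpoint was in 67 of the genes, 5.06% (3.94 to 6.38%), against 4.91% of all genes, and these are 4.97% of the genes with an OE9-1 midpoint. Gene length moved both values, but within classes of length the OE3-1 share stayed close to that of all genes, with 44.0% against 43.9% in genes of 5000 bp and more and 8.95% against 8.35% from 1000 to 2000 bp. For OE9-1 the longest genes had 19.0% (11.3 to 29.1%) against 13.5%. No midpoint of either other line lay in 1065 of the genes (80.4%), and the share over all protein-coding genes was 80.8%. At the common Wilcoxon limit an OE3-1 midpoint lay in 4.00% of the genes, against 3.73% of all genes, and an OE9-1 midpoint in 0.981% (0.523 to 1.67%), against 0.587%.

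OE3-1 peaks at the same gene end were somewhat more frequent than over all ends, and OE9-1 peaks somewhat less. Both intervals include the share over all ends. In genes of at least 1000 bp an OE3-1 midpoint lay just inside the same end for 51 of 1174 ends, 4.34% (3.25 to 5.67%), and just inside the opposite end for 39, 3.32% (2.37 to 4.51%), where 3.29% of all such ends had one. The interval of the same end includes 3.29%, and no difference was tested. For OE9-1 the values were 12 ends, 1.02%, and 15 ends, 1.28%, against 1.34%. OE9-1 peaks outside genes lay within 1000 bp of the nearer end for 39 OE17-4 peaks and within 1000 bp of the farther end for 37, so they had no preference for the side of the OE17-4 peak.

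Both other lines had a midpoint in 21 of the genes, 1.58% (0.984 to 2.41%), against 1.01% of all genes. AT1G10320 had 271 reads in OE17-4 at 230 bp from the higher-coordinate end, while its OE3-1 and OE9-1 midpoints lay at least 1268 bp from that end. In AT1G27752 all 3 lines were near the same end, at 461 bp in OE17-4, 404 bp in OE3-1 and 152 bp in OE9-1. In the AtDEK3 gene, by contrast, OE17-4 was near the lower-coordinate end. An OE3-1 peak with 194 reads lay 127 bp from the higher-coordinate end, and another with 471 reads lay 1417 bp from the lower-coordinate end. The OE9-1 midpoint was 692 bp from the higher-coordinate end. SRFR1, a regulator of plant immunity, had 205 reads at 344 bp in OE17-4 and 353 reads at 419 bp in OE3-1, with OE9-1 midpoints at least 1777 bp from an end. CLPB4, a mitochondrial chaperone gene, NET1B, an actin-binding protein gene, ATR1, a cytochrome P450 reductase gene, FC2, a ferrochelatase gene, AT1G68810 and AT5G42950 completed the 10 with the most OE17-4 reads. Of these 6 only NET1B had a peak of another line just inside the same end, from OE3-1 at 463 bp against 372 bp in OE17-4.

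Named gene families were counted with 20 lists made from gene names, and 18 had at least 1 gene with an OE17-4 peak just inside an end. Over all protein-coding genes the share was 4.83% for OE17-4, and it was 5.87% for OE3-1 and 2.51% for OE9-1. The table gives a symbol for 552 of the 1325 genes, so lists made from names miss genes. They also miss some genes with a symbol, and a list's share beside the background is a description of that list. Where a list had no gene with a peak, the limit printed is 3 counts over the genes of the list.

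WRKY factors, plant transcription factors best known from defence and senescence, had the largest share of the 20 lists. The lists were chosen with earlier results of these data known, and their intervals are not adjusted for the number of lists. An OE17-4 peak lay just inside an end in 12 of 72 WRKY genes, 16.7% (8.92 to 27.3%), and anywhere in 14. OE3-1 had 5 of 72, 6.94%, and OE9-1 had 0 of 72, which allows a share of up to 4.17%. At the common Wilcoxon limit OE3-1 had 3 of 72, where its share over all genes was 1.74%. With the whole peak required within 500 bp of an end, OE17-4 had 8 of 72, 11.1%, against 4.01% of all genes. In the 50% of its list with the lowest FDR it had 7 of 72, 9.72%, against 2.53%. WRKY62 had 222 reads at 477 bp (chr5:351329-351476), WRKY56 210 at 278 bp, WRKY27 151 at 485 bp and WRKY34 148 at 334 bp. WRKY67, WRKY70, WRKY32, ABO3, WRKY49, WRKY22, WRKY41 and WRKY8 had between 101 and 148 reads. All 12 had peaks from 93 to 485 bp inside, and none of them was among the 25 with more than 300 reads. WRKY67 alone also had an OE3-1 peak near an end, at 177 bp. The 2 WRKY genes with OE17-4 peaks only deeper were WRKY29, at 594 bp, and RRS1, a resistance protein gene with a WRKY domain.

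Seed storage and late embryogenesis genes, which are active in ripening seeds, had 4 of 25 with a near-end peak in OE17-4, 16.0% (4.54 to 36.1%), and 0 of 25 in both other lines, which allows up to 12%. SESA2 and SESA5, which encode 2S albumins, had 238 reads at 151 bp (chr4:13609834-13610014) and 167 reads at 302 bp. CRU2, a cruciferin gene, had 116 reads at 168 bp and LEA3 69 reads at 83 bp. The other cruciferin genes, CRA1 and CRU3, had OE17-4 peaks deeper in the gene, at 931 bp with 177 reads and at 797 bp with 283 reads. SESA1, SESA3 and SESA4 had no OE17-4 midpoint. The list is short and its interval includes 4.83%.

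Heat shock proteins and factors had 6 of 55 genes, 10.9% (4.11 to 22.2%), against 9.09% in OE3-1 and 0 of 55 in OE9-1, which allows up to 5.45%. At the common Wilcoxon limit OE3-1 had 3.64%, where its share over all genes was 1.74%. CLPB4 had 200 reads at 333 bp, HSP21, a small chloroplast heat shock protein gene, 189 reads at 430 bp, cpHsc70-1, a chloroplast chaperone gene, 166 reads at 275 bp and HSP93-III 165 reads at 500 bp. The factors HSFA7A and HSFA6B had 136 and 117 reads. Cytochrome P450 genes, which encode oxidases of many plant metabolites, had 15 of 241, 6.22% (3.53 to 10.1%), led by CYP71A18 with 267 reads, CYP94D2 with 240, the brassinosteroid synthesis gene BR6OX1 with 184 and CYP705A22 with 183.

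Other families lay near the background. NAC factors had 7 of 99, 7.07% (2.89 to 14.0%), with NAC097 at 168 reads, RD26, a drought-responsive factor, at 154, NAC003 at 152 and NAP, a senescence factor, at 145. ABC transporters had 9 of 127, 7.09%, with ABCI1 at 174 reads and ABCA2 at 155, and 11.8% in OE3-1. At the common Wilcoxon limit OE3-1 had 3.15%, where its share over all genes was 1.74%. Receptor-like kinases and leucine-rich repeat proteins had 8 of 130, 6.15%, the same share as in OE3-1. MYB factors had 6 of 125, 4.80%, with TT2, a regulator of seed coat pigment, at 167 reads, MYB7 at 156, MYB23, a trichome factor, at 155 and MYB60, a guard cell factor, at 127. All of these intervals include 4.83%.

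The shares of the ribosomal, photosynthesis, histone and cytoskeleton lists were also near the background, and their intervals include 4.83%. Ribosomal protein genes had 2 of 68, 2.94% (0.358 to 10.2%), RPL27AB with 207 reads and PRPL28 with 142, while OE3-1 had 9 of 68, 13.2% (6.23 to 23.6%). At the common Wilcoxon limit OE3-1 had 1 of 68, 1.47%, where its share over all genes was 1.74%. Photosynthesis antenna and photosystem genes had 2 of 51, PSAL with 143 reads and LHB1B2 with 133, and the histone list 1 of 24, HIS4 with 137. MGH3, a histone H3 gene that this list misses, had 111 reads at 104 bp. Tubulin and actin genes had 1 of 24, TUB2, whose peak of 376 bp was the longest of the 1341. Aquaporins had 0 of 31, which allows up to 9.68%. The pentatricopeptide repeat list had 0 of 12, which allows up to 25% of that list only. It does not hold RPF2, a pentatricopeptide repeat gene with 149 reads at 43 bp, so it does not stand for the family. The remaining lists, AP2/ERF factors, zinc finger proteins, F-box proteins, SAUR proteins, cell wall expansins and xyloglucan transferases, and small secreted proteins, held 1 to 3 genes each, or 2.08% to 7.41%.

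**Figure D5:**
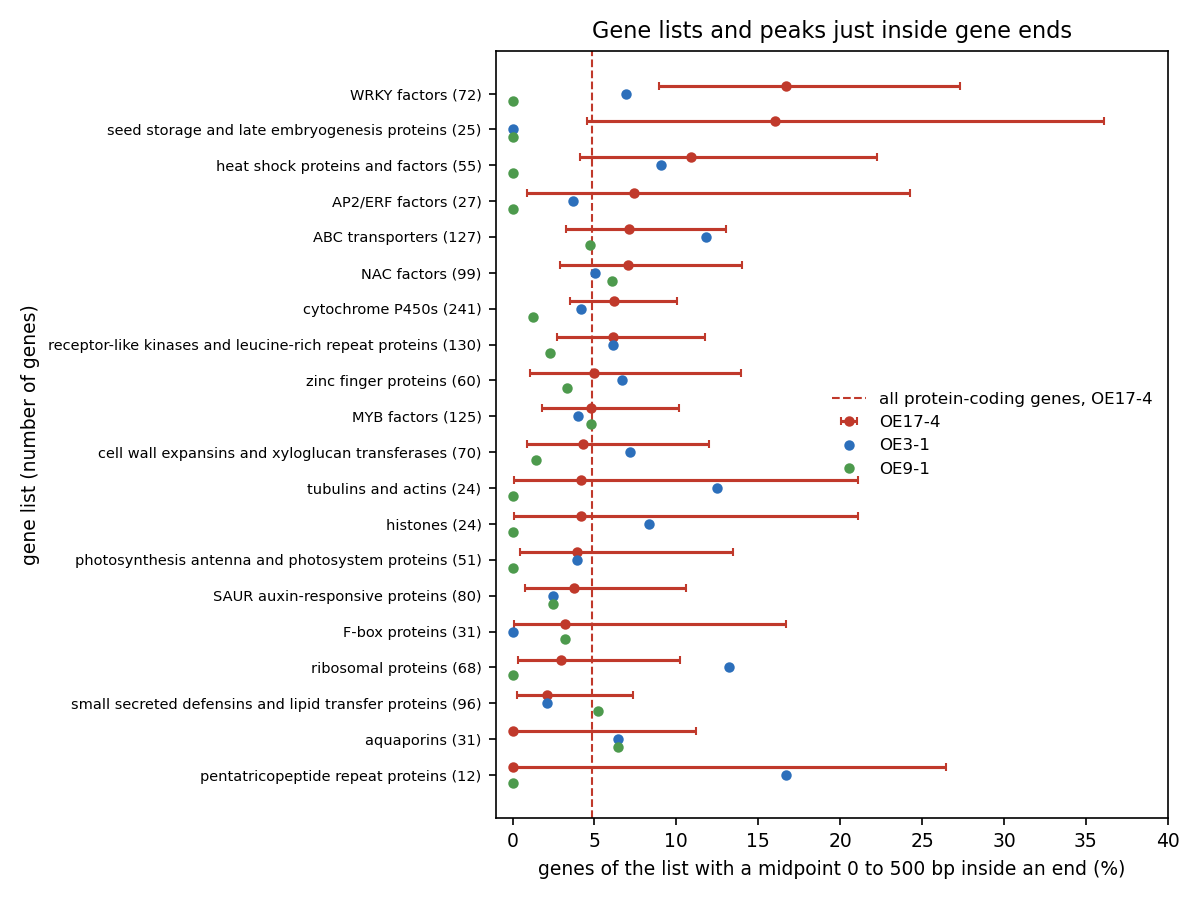
Share of genes (%) with a midpoint 0 to 500 bp inside an end for 20 gene lists (number of genes in brackets), in OE17-4 with exact 95% intervals and in OE3-1 and OE9-1 as points, with the OE17-4 share of all protein-coding genes dashed. WRKY factors are at 16.7% and seed storage and late embryogenesis proteins at 16.0% in OE17-4, against a dashed line at 4.83%, and only the WRKY interval lies wholly above it. The intervals are not adjusted for the number of lists.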

How the data were processed

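Peaks had been called separately in each of the 3 ChIP libraries, and no pooled list was used. The genome build was TAIR10 per the submitters' processing notes. Which aligner and peak caller were used, and whether inputs entered the calling, is not given in the sources used here. The authors deposited unnormalized counts of the reads in each peak and on each strand, per the file headers. The FDR, in percent, the normalized difference between strands, a fraction, and the Wilcoxon filter p-value are also the authors' values, per the file headers.

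Repeated regions were dropped (2, 1 and 2 from OE17-4, OE3-1 and OE9-1). Rows with a region written with 3 dots (4, 8 and 6) were kept. Midpoints were placed on the 27444 nuclear protein-coding gene spans of RefSeq TAIR10.1. That table gives names, types and spans only, so strand, exons, sequences and promoter motifs were not used here. Shares have exact Clopper-Pearson 95% intervals, medians order-statistic 95% intervals. Limits for counts of 0 are 3 counts of the total. The position code was tested on simulated data. Python 3.11.15, pandas 2.3.3, numpy 2.4.6, scipy 1.17.1 and matplotlib 3.10.9 were used. No test over samples was possible with 1 library per line.

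The peaks and gene lists were chosen with earlier results of these data known, and list patterns were trimmed by gene name. Genes were named by rule: the 12 lowest FDRs, the 8 highest read counts, up to 8 genes with several peaks, up to 10 overlapped by another line, up to 10 with all lines, 3 on each side of the limit and up to 4 per list. Other names, such as the remaining genes of a count, were added after their values were seen.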

Additional observations from a re-analysis of the deposited data

How the results depend on the processing

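Of 86 values recomputed under alternatives for 11 results, 65 kept their size within the stated error, 21 moved and none reversed. Most of the results are counts, medians or shares with no direction to reverse. Keeping repeated regions or leaving out rows with 3 dots changes few rows, so those values could hardly move. The order of the lines was not among these results, and its values at the Wilcoxon limit were added after seeing the data. With the whole peak required within 500 bp of 1 end, the share of OE17-4 peaks was 32.4%, and 1 was overlapped by OE9-1. In the 50% of each list with the lowest FDR the median was 156 reads, OE3-1 overlapped 7 peaks and OE9-1 1, and their midpoints lay in 7.78% and 3.03% of the genes. With a common Wilcoxon limit of 9.99e-05, which leaves 1231 OE3-1 and 471 OE9-1 peaks, the mean share over lines was 33.7%, OE3-1 drew level with OE17-4, at 39.2% each, and the overlaps were 14 and 1 and the gene shares 4.00% and 0.981%. By gene length, in classes under 1000, 1000 to 2000, 3000 to 5000 and from 5000 bp, the OE3-1 gene share was 3.01%, 8.95%, 25.9% and 44.0%, and the OE9-1 share 0%, 3.13%, 7.60% and 19.0%. Among settings added after seeing the data, genes of at least 2000 bp gave a ratio of 1.41 to the bases, and the next gene of any type lay a median of 668.5 bp away. Leaving out each line in turn gave a mean share from 24.6% to 34.9%. The cause of these changes was not tested, beyond the fewer peaks that stricter lists hold. The planned share nearer to the gene start could not be run without strand, and the ratio to the bases was not recomputed for whole peaks. No paired analysis was possible because the groups compared share no replicate numbers, each line being 1 library. Library depth is unknown, so reads were compared within OE17-4 alone.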
